A study of Drosophila melanogaster with 6 samples.

Results

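Cullin-RING ubiquitin ligases were examined in S2 cells, a macrophage-like line from Drosophila embryos that engulfs particles. The genes taken were the 6 cullins Cul1 to Cul6, the RING-box genes Roc1a, Roc1b and Roc2, and the adaptor gene SkpA. All 10 were found among the 11983 genes to which an array probe set could be assigned alone. They were represented by 11 of the 18769 probe sets tested, 1 per gene except for Cul3, which had 2. Cells had been kept for 1 h at 25 °C in medium with 1% serum, either with 25 fragments of apoptotic S2 cells per cell or with medium alone, after maintenance in 10% serum. The fragments came from S2 cells driven into apoptosis over 24 h by cycloheximide, an inhibitor of protein synthesis, at 1.5 µg/ml. Each group held 3 arrays from cultures labelled as biological replicates, and all values carry the limited precision of so few arrays. The comparison asked which transcripts differ once phagocytes have met apoptotic fragments. RNA carried over in engulfed fragments, or a change in RNA per cell, cannot be told apart from a response of the cells.

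In these ligases a cullin is the scaffold. Its C-terminal end holds a RING-box protein, which brings in the ubiquitin-loaded E2 enzyme, and its N-terminal end holds an adaptor that presents the substrate. Cul1 uses SkpA and F-box proteins, Cul2 and Cul5 use Elongin B and C, Cul3 uses BTB proteins and Cul4 uses the protein encoded by pic, the fly DDB1. Attachment of the ubiquitin-like protein Nedd8 activates a cullin, and the COP9 signalosome removes it. In Drosophila, the F-box protein Pallbearer, acting with SkpA and Cul1, is known to be needed for efficient engulfment of apoptotic cells.

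The values were log2 expression values, and a change is fragments minus medium alone on that scale. Probe sets whose 6 values spanned less than 0.01 log2 units are called flat, and the others varying. Of the 18769 probe sets 61.4% were flat, and for these a change cannot be read and absence of the transcript is not shown. A probe set was called at a limma adjusted p under 0.05. Of the 11 probe sets here, 3 were flat and 8 varied. Medium-alone replicate 3 stood apart from the other arrays, with a mean correlation of 0.9903 with its own group, against 0.9946 to 0.9982 for the other arrays. The 3' minus 5' differences of the RNA quality probe sets overlapped between groups, at 1.90 to 2.20 with fragments and 1.95 to 2.56 in medium alone for Act5C. Of 11 hemocyte markers measured, 10 varied, which by itself is no sign of expression. Medium-alone means were 10.68 to 11.20 for srp, Pvr, Col4a1 and vkg, but 6.88 for Pxn and 5.98 for He. NimC1 was flat at 6.09, and ush differed by 0.63 without being called. The neuron marker elav had a mean of 8.14 in medium alone. The hemocyte marker crq differed by -0.80 and was called among varying probe sets (limma adjusted p = 0.00559), with a list mean of 9.11 to 9.17 with fragments and 8.89 to 9.31 in medium alone. The mean of 3 germ line markers lay at 6.91 to 7.11 with fragments and 6.41 to 6.73 in medium alone. Of these, bam differed by 0.91 and was called among varying probe sets (limma adjusted p = 0.0224), and aub by 0.40 and vas by -0.075, neither called. Their part in the results below was not tested.

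On the deposited values of all 6 arrays, Cul6 was the only 1 of the 10 genes called, and it was higher with fragments. The other cullins, Roc2 and SkpA were not called in either fit described below, and Roc1a, Roc1b and one probe set for Cul3 gave flat values. The family was chosen by gene name with results of this same comparison known, and Cul6 was selected on its log2 change and call in it. The values and p-values here therefore describe the genes and are not independent evidence. Of all 18769 probe sets 0.304% were called (57), with 0.0533% higher and 0.250% lower, and 1 of the 11 probe sets here was among the higher ones. With the flat probe sets left out, 6.85% of the 7241 varying probe sets were called, 2.29% higher and 4.56% lower, and again 1 of 8 here.

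Cul6 encodes a cullin for which the files give no partner. Its probe set read 8.85, 8.89 and 8.85 on the fragment arrays, against 8.61, 8.59 and 8.59 in medium alone. The groups lay apart and the replicates of each were close together. The mean was 8.86 ± 0.024 with fragments and 8.60 ± 0.016 in medium alone (SD, n = 3 each). The change was 0.26, a 1.20-fold rise. In the fit to all probe sets its SE was 0.016 and its 95% interval 0.22 to 0.31, with a limma adjusted p of 0.0407. In the fit to the varying ones the SE was 0.029 and the 95% interval 0.19 to 0.34, with a limma adjusted p of 0.0102. The change was modest for this array: 23.2% of the varying probe sets had a larger absolute change. Its within-group SD was small, since only 7.89% had a smaller one. Leaving out any 1 of the 6 arrays kept the change between 0.25 and 0.27 but ended the call over all probe sets. The limma adjusted p was then 0.239, 0.125 and 0.145 without fragment replicate 1, 2 or 3, and 0.245, 0.254 and 0.110 without medium-alone replicate 1, 2 or 3. These omissions also left at most 8 calls on the whole array. Among the varying probe sets the call held without fragment replicate 3 (limma adjusted p = 0.0327) and without medium-alone replicate 3 (0.0133), and was lost at 0.0511 to 0.0573 without each of the other 4.

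**Figure D1:**
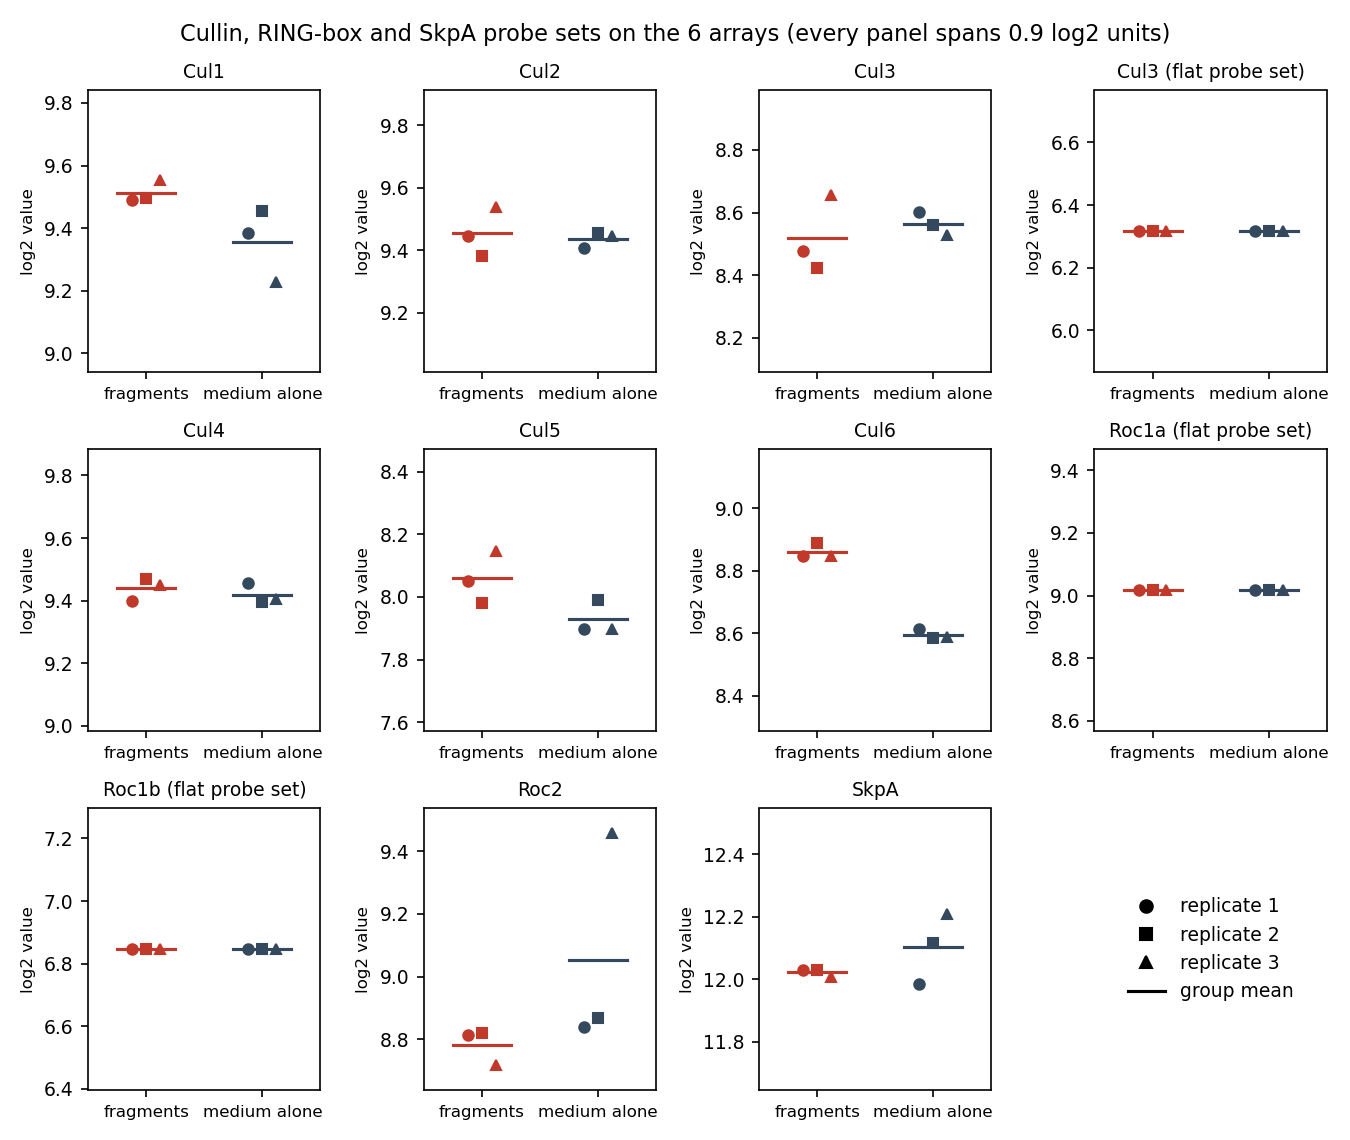
Log2 value (vertical axis) of each of the 11 probe sets on the 3 fragment and 3 medium-alone arrays; marker shapes give the replicate number, lines the group means, and every panel has the same vertical span. The Cul6 groups lie apart with tight replicates, medium-alone replicate 3 of Roc2 stands at 9.46 above all other arrays, and the 3 flat probe sets show a single level.

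Cul1, the scaffold of the SCF ligases, read 9.49, 9.50 and 9.55 with fragments, against 9.39, 9.46 and 9.23 in medium alone. All fragment arrays lay above those of medium alone, but the change of 0.16 (SE 0.070, 95% interval -0.034 to 0.35) was not called (limma adjusted p = 0.560). It was 0.092 without medium-alone replicate 3, the lowest array. Cul5, which works through Elongin B and C, read 8.05, 7.98 and 8.15 with fragments, against 7.90, 7.99 and 7.90 in medium alone. Its groups overlapped by 1 array each, and the change of 0.13 (95% interval -0.022 to 0.28) was not called either (limma adjusted p = 0.535). Cul1 and Cul5 were thus, after Cul6, the cullins with the next largest changes, with intervals that reach below 0.

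Cul2, the second Elongin-linked cullin, read 9.45, 9.38 and 9.54 with fragments, against 9.41, 9.46 and 9.45 in medium alone, and the groups overlapped. Its change was 0.020 with a 95% interval of -0.11 to 0.15. Cul4, which takes its substrates through pic, read 9.40, 9.47 and 9.45 with fragments, against 9.45, 9.40 and 9.40 in medium alone. It had the tightest interval of these overlapping cullins, a change of 0.021 within -0.055 and 0.097. An increase of the size seen for Cul6 lay outside it, and outside the intervals of Cul2 and Cul3. Cul3, the scaffold for BTB adaptors, read 8.48, 8.42 and 8.66 with fragments, against 8.60, 8.56 and 8.53 in medium alone. Here the fragment arrays spread more widely than those of medium alone, with replicate 3 highest, and the change was -0.045 (95% interval -0.24 to 0.15). The second probe set for Cul3 was flat at 6.32 and could not show whether the gene's probe sets agree. The limma adjusted p of Cul2, Cul3 and Cul4 lay between 0.865 and 0.929.

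Set against the other cullins on the same array, Cul6 shifted upward with fragments. The log2 value of Cul6 minus the mean of Cul1 to Cul5 was -0.13, -0.063 and -0.22 on the fragment arrays, against -0.34, -0.38 and -0.31 in medium alone, and the groups did not overlap. Levels of different probe sets are not comparable, so only the difference between groups has a meaning. It was 0.21, with means of -0.14 ± 0.080 with fragments and -0.34 ± 0.037 in medium alone (SD, n = 3 each). No scale that adds the same amount to every probe set of an array can alter it, and with 1 array left out it lay between 0.17 and 0.25. Taken singly, Cul6 minus Cul2, minus Cul3 and minus Cul4 separated the groups, with changes larger for Cul6 by 0.24, 0.31 and 0.24. Against Cul1 and Cul5 the changes differed by 0.11 and 0.13 and the groups overlapped. No test was made of these differences, as Cul6 had been chosen for its change.

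**Figure D2:**
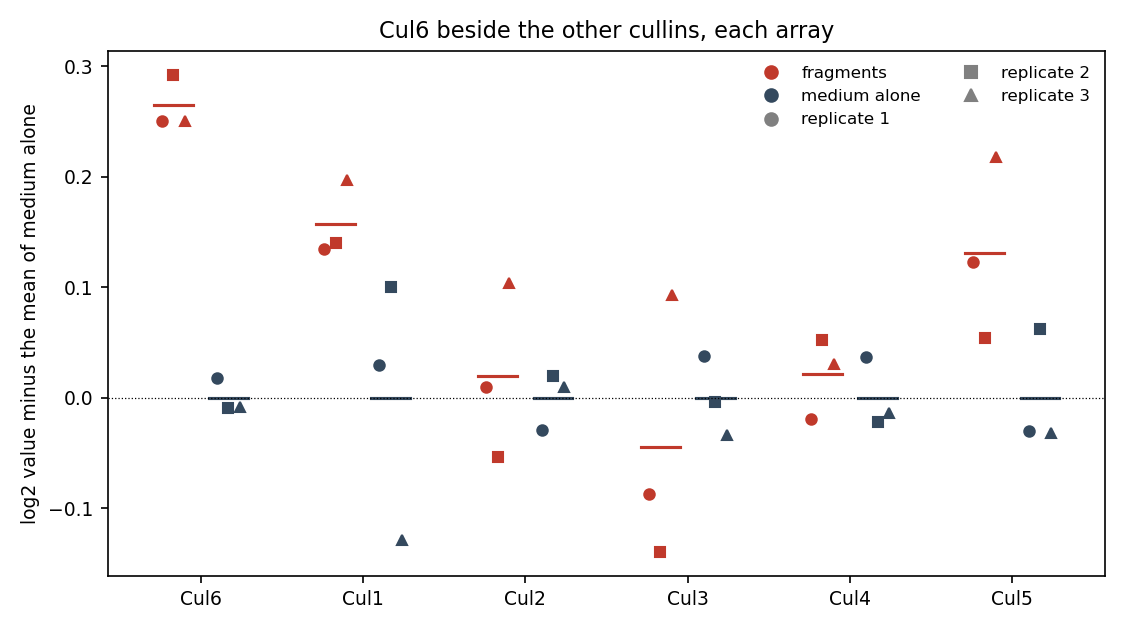
Log2 value minus the mean of the 3 medium-alone arrays (vertical axis) for Cul6 and the other cullins, with the probe set of highest mean for Cul3; points are single arrays, shapes the replicate number and lines group means. The Cul6 fragment arrays form a tight group around 0.26, while those of the other cullins average between -0.045 and 0.16 and, except for Cul1, overlap the medium-alone arrays.

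The RING-box genes gave little that could be read. Roc1a, whose product is the RING partner in SCF ligases, was flat at 9.02, and Roc1b, a second RING-box gene, was flat at 6.85. Roc2, the RING-box partner of Cul5, read 8.81, 8.82 and 8.72 with fragments, against 8.84, 8.87 and 9.46 in medium alone. The fragment arrays lay below all of medium alone, but most of the distance came from medium-alone replicate 3. The change was -0.27 with an SE of 0.202 (95% interval -0.82 to 0.28, limma adjusted p = 0.744), and -0.070 without that array.

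SkpA, the Skp1 adaptor that joins F-box proteins to Cul1, read 12.03, 12.03 and 12.01 with fragments, against 11.98, 12.12 and 12.21 in medium alone. The fragment arrays were close together and lay inside the range of medium alone, which had its highest value on replicate 3. The change was -0.080 (95% interval -0.26 to 0.097, limma adjusted p = 0.763), and -0.027 without medium-alone replicate 3. Over the 8 varying probe sets, 2 had fragment arrays wholly above medium alone (Cul1 and Cul6) and 1 wholly below (Roc2). This is 3 of 8, against 32.0% of all varying probe sets (14.7% above and 17.4% below). Their median absolute change was 0.11, against 0.096 over all varying probe sets.

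**Figure D3:**
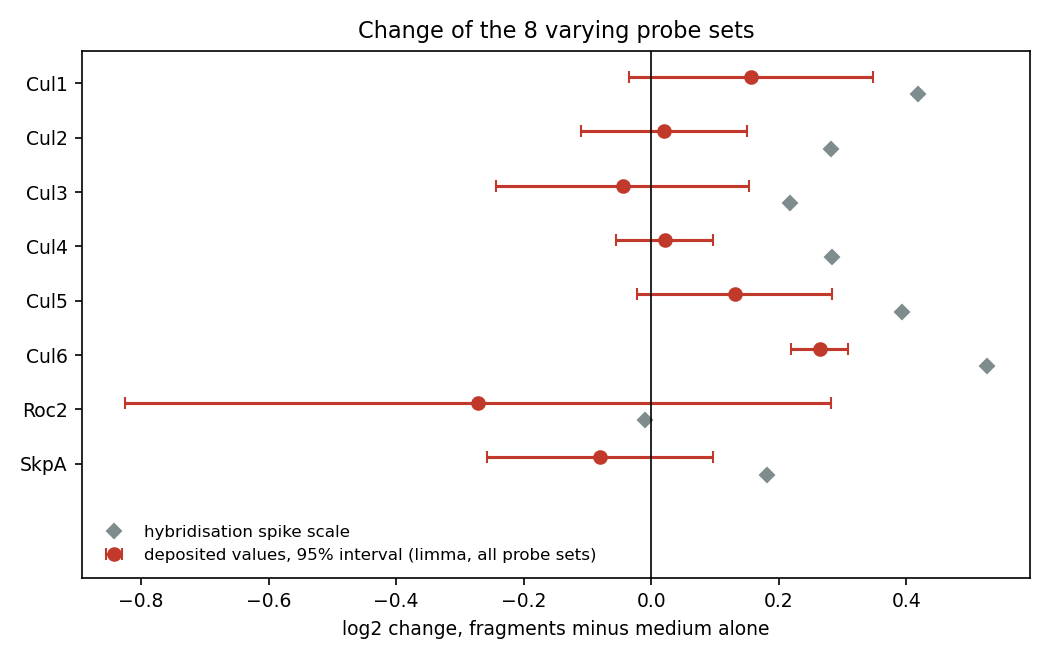
Log2 change, fragments minus medium alone (horizontal axis), of the 8 varying probe sets; red points and bars are the deposited values with 95% intervals from limma over all probe sets, and grey diamonds the change when arrays are set to their hybridisation spikes. The interval of Cul6 alone lies wholly above 0, that of Roc2 is the widest, and the spike scale moves every gene up by 0.26.

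The direction of small changes depended on the scale. Setting each array to its 18 probe sets for hybridisation spikes, transcripts added to all arrays, raised every change by 0.26, because the spikes read 10.38 ± 0.11 with fragments and 10.65 ± 0.16 in medium alone (SD, n = 3 each). On that scale Cul6 differed by 0.53 and Cul1 by 0.42, and both were called (limma adjusted p = 0.0030 and 0.032), whereas Cul3 and SkpA turned to 0.22 and 0.18. Roc2 then differed by -0.0097. The spread of spike levels between arrays enters the p-values of this scale. Its fit gave every probe set a common SD of 0.17. These p-values therefore follow the size of the change and not each gene's own replicate spread. On this scale 1685 probe sets (8.98%) were called, against 57 as deposited. The flat probe sets for Roc1a, Roc1b and Cul3 stood at 0.26 and were not called, so the 8.98% includes flat probe sets that did not pass. Quantile normalization turned none of the 8 changes and gave Cul6 a change of 0.28.

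**Figure D4:**
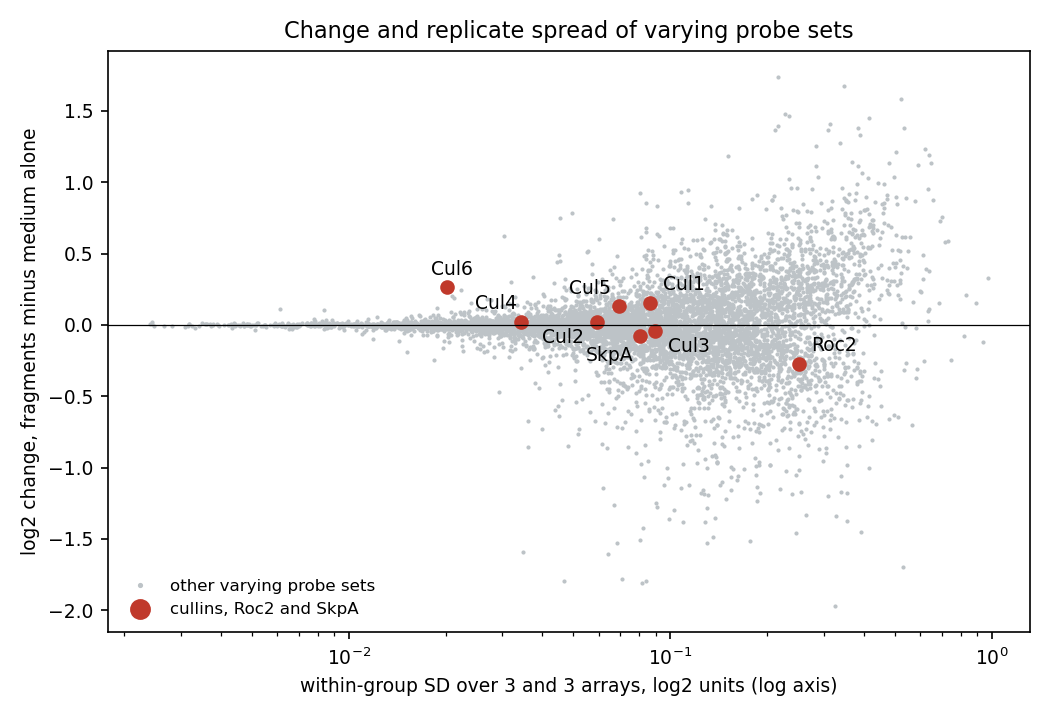
Log2 change, fragments minus medium alone (vertical axis), against the within-group SD over the 3 and 3 arrays (horizontal log axis) for 7241 varying probe sets in grey, with the 8 varying cullin, Roc2 and SkpA probe sets in red. Cul6 sits at the upper edge of the grey cloud for its small SD of 0.020, and Roc2 lies at a large SD of 0.25.

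Among 5973 other varying probe sets with 1 gene symbol, the profiles most like that of Cul6 over the 6 arrays were those of Zyx, CG18558, Tbcc, GILT1 and Arc2. Their Pearson r with Cul6 was between 0.993 and 0.998, and 85 probe sets (1.42%) had an r over 0.95. With 2 groups of 3 arrays, such an r reflects mainly a shared step between groups. Zyx, the focal adhesion protein zyxin, differed by 0.62, CG18558 by 0.75 and Tbcc, a tubulin folding cofactor, by 0.65. GILT1, a lysosomal thiol reductase, differed by 0.95 and Arc2, a capsid-forming protein, by 0.93. Each of the 5 had a larger change than Cul6.

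In the RefSeq gene table (Release 6 plus ISO1 MT), some of the genes overlap others, while the array values come with no named build. Cul6 overlaps the pseudogene CR14117, whose probe set differed by 0.21 and was not called (limma adjusted p = 0.615). Its flanking genes were CG11263, which was flat, and MICAL-like, which differed by 0.33 (limma adjusted p = 0.660). Kdm4A, next to Cul1, differed by 0.30, and CG1233, next to Roc1b, by -0.34, and both were called among varying probe sets (limma adjusted p = 0.0104 and 0.0444). Roc2 shares its span with the trehalose transporter gene Tret1-1, which differed by 1.03 without being called (limma adjusted p = 0.486), the opposite sign to Roc2. Roc1a overlaps Hmt4-20, a histone methyltransferase gene, with a change of 0.37 that was not called (limma adjusted p = 0.635). Whether any probe set takes up signal from an overlapping gene was not tested.

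The genes that work with the cullins were read from 9 lists, with 71 of 80 written genes measured with the probe set of highest mean standing for each gene. Of these 71, 30 were flat. Over all probe sets 0 passed in limma, against 0.392% of 11983 genes (0.0751% higher and 0.317% lower), and 13 of the 71 (10 of them varying) had an unadjusted limma p under 0.05, against 10.8% of all probe sets. With the flat probe sets left out, 1 rose and 2 fell of 41, against 7.64% of 5523 genes (2.52% higher and 5.12% lower). These were SCCRO4, Fsn and wap. The groups lay apart in 15 of the 41, 8 higher and 7 lower, against 34.7% of the 5523 genes. The median change over the 41 was -0.0021, and -0.0063 over the 5523 genes.

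The gene wap, ortholog of the Cul4-linked WD40 protein DCAF7, showed the largest of these changes. It read 7.54, 7.58 and 7.66 with fragments, against 9.08, 9.03 and 8.74 in medium alone, and the groups lay far apart. The change was -1.36 (SE 0.111), a 2.56-fold fall, with a limma adjusted p of 0.0567 in the fit to all probe sets and 0.00356 without the flat ones. It stayed called among the varying probe sets with any 1 array left out (limma adjusted p between 0.00082 and 0.0297), and the change was -1.09 on the spike scale. Of the other Cul4 adaptors, pic and mahj overlapped between groups, with changes of -0.013 and -0.13, and ohgt (the fly cereblon), DCAF12 and l(2)dtl were flat.

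The F-box gene Fsn, which encodes a substrate receptor known from the synapse, read 8.50, 8.39 and 8.58 with fragments, against 8.91, 8.88 and 8.96 in medium alone. It fell by 0.43 among the varying probe sets (limma adjusted p = 0.0175, and 0.127 over all). That call was lost without fragment replicate 1 or 2 (0.0858 and 0.0522) and without medium-alone replicate 1 or 2 (limma adjusted p = 0.0688 and 0.0628). On the spike scale the change of Fsn was -0.17 and was not called (limma adjusted p = 0.253). Of the 8 varying F-box genes, 6 had a positive change, and in 6 medium-alone replicate 3 was the lowest of the 6 arrays. The matching shares of all varying probe sets were not counted, so neither count is read as particular to F-box genes. Over all 6 arrays the median change of the 8 was 0.28, against -0.0063 over the 5523 genes. Without medium-alone replicate 3 the median of the 8 was 0.19, and no median over all genes was taken for that fit. Fbl6, morgue and ppa differed by 0.35, 0.20 and 0.61, and slmb and ago, receptors for phosphorylated regulators, by 0.40 and 0.50. On the deposited values of all 6 arrays none of these 5 was called. On the spike scale all 5 were. The 8.98% called on that scale is a share of all probe sets, and the flat F-box genes, at 0.26, were not called (limma adjusted p = 0.0737). The share among varying probe sets was not counted, so the 5 calls are not read as particular to F-box genes. Without medium-alone replicate 3, ppa, ago and slmb differed by 0.32, 0.22 and 0.25. FBXO11, also with a positive change, differed by 0.19, and by 0.055 without that array. It too was called on the spike scale and not on the deposited values of all 6 arrays. Pallbearer (pall), added after the lists were written, read 8.98, 9.32 and 9.17 with fragments, against 8.95, 8.92 and 9.09 in medium alone. Its groups overlapped and the change of 0.17 was not called (limma adjusted p = 0.686). The Skp1 relatives SkpB, SkpD, SkpE and SkpF were flat.

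Nedd8 attachment was represented by 3 varying genes. SCCRO4, of a family that promotes Nedd8 transfer to cullins, read 8.56, 8.59 and 8.54 with fragments, against 8.41, 8.38 and 8.33 in medium alone. It rose by 0.19 among the varying probe sets (limma adjusted p = 0.0363, and 0.127 over all). The call was lost without each of 5 arrays (limma adjusted p between 0.0750 and 0.142) and held without medium-alone replicate 3 (0.0396). Uba3, a subunit of the Nedd8-activating enzyme, lay lower on all fragment arrays, with a change of -0.30 that was not called (limma adjusted p = 0.392). SCCRO differed by -0.10, and Nedd8, APP-BP1 and SCCRO3 were flat. Of the genes for Nedd8 removal, Den1, a Nedd8 protease, differed by 0.46 and the signalosome subunit CSN4 by -0.25, and neither was called in either fit of the 6 deposited arrays. On the spike scale Den1 was called and CSN4 differed by 0.0074. CSN5, the catalytic subunit of the signalosome, was flat, and Cand1, which exchanges cullin adaptors, differed by 0.11.

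On the deposited values of all 6 arrays, adaptors of Cul2, Cul3 and Cul5, the anaphase-promoting complex and the E2 genes gave no call. Among Elongin-linked genes gus, a SOCS-box receptor, read 10.39, 10.31 and 10.34 with fragments, against 9.66, 9.67 and 10.06 in medium alone. The groups lay apart and the change was 0.55 (limma adjusted p = 0.295 over all probe sets), with medium-alone replicate 3 nearest to the fragment arrays. Socs16D and EloB differed by 0.17 and -0.022. Among the varying Cul3 adaptors all changes were small, between -0.14 (kel, a fly Kelch protein) and 0.085 (BTBD9), and klhl10 was flat. In the anaphase-promoting complex, a ligase with the cullin-like subunit encoded by mr, APC10 differed by -0.68, Cdc16 by -0.32 and the activator fzy by -0.30, and mr itself by -0.057. The E2 genes CG7656 and Ubc2 differed by 0.13 and 0.025. Without medium-alone replicate 3, 7 of the 41 varying partner genes were called among the varying probe sets. They were wap, Fsn, SCCRO4, gus, Den1, APC10 and kel. In that fit 12.1% of all varying probe sets were called, a share counted per probe set and not per gene. On the spike scale 12 partner genes were called, 10 higher and 2 lower, among them gus, Socs16D and APC10 of those in this paragraph. Over the whole array 1492 probe sets were called higher and 193 lower on that scale, so the lean to higher was not particular to the partner genes.

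**Figure D5:**
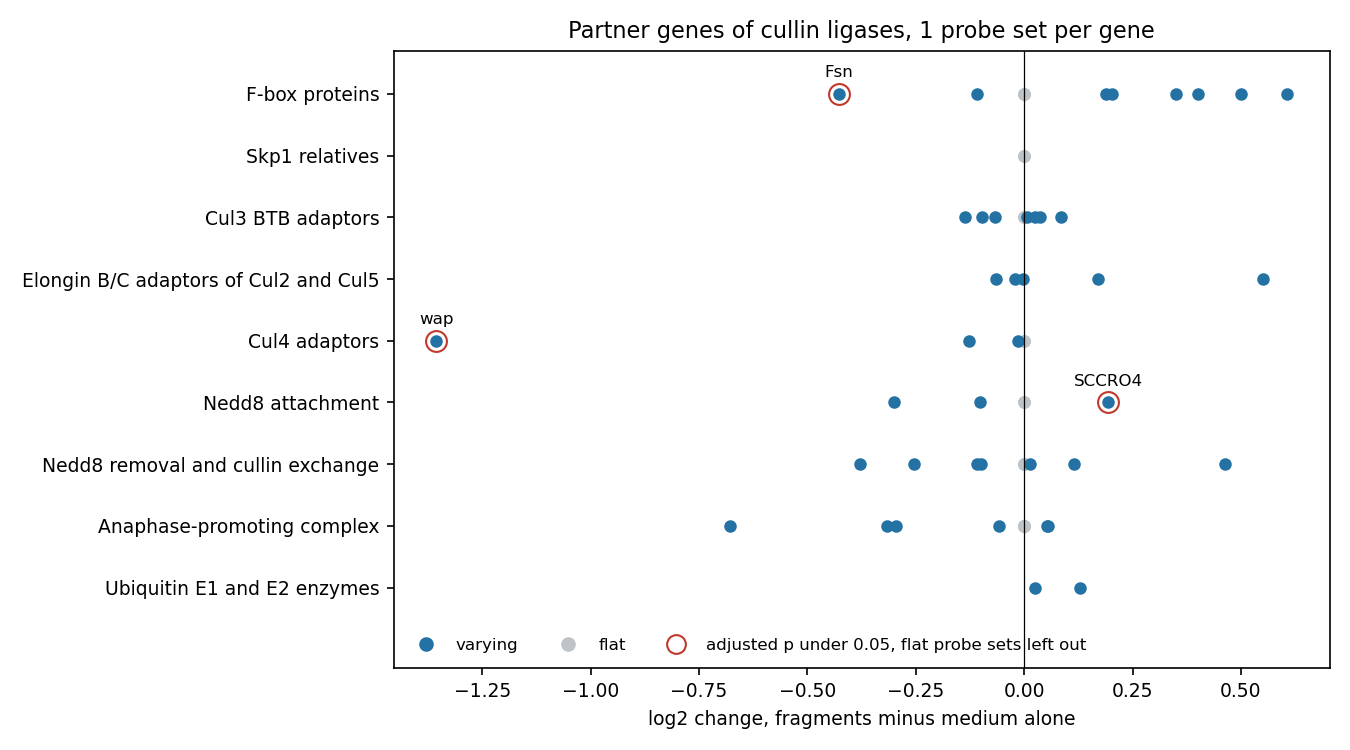
Log2 change, fragments minus medium alone (horizontal axis), of 71 partner genes in 9 lists, 1 probe set per gene; blue points vary, grey points are flat and red rings mark limma adjusted p under 0.05 with flat probe sets left out. The ringed genes are wap at -1.36, Fsn at -0.43 and SCCRO4 at 0.19.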

How the data were processed

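RNA of 6 S2 cultures was hybridised to Affymetrix arrays, from 150 ng of total RNA per the labels' protocols. The deposited values were log2 expression values, 1 per probe set and array, between 5.35 and 14.1. The submitters' processing notes name R 2.7.2, and the summarisation and normalization are not given in the sources used here. They were not transformed or filtered on level, and 183 control probe sets were set aside (18769 tested). Genes came from the array annotation, using probe sets with 1 symbol. The contrast was fitted with limma 3.58.1 (lmFit, eBayes) under R 4.3.3, two-sided, with Benjamini-Hochberg adjustment over all probe sets. The fit was repeated over 7241 varying probe sets, because flat ones drew the prior variance toward 0. Both fits were run on simulated data with independent noise in each probe set, which hold no outlying array and cannot test its effect. Arrays give no read depth.

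Members, lists and alternatives were chosen with earlier results of these data known. Named were all members, the 3 genes of smallest p per list, partner genes called among varying probe sets, and the 5 profiles most like Cul6. The genes ppa, slmb, ago, FBXO11, mahj, pic, SCCRO, Cand1, mr, pall, neighbouring genes and flat genes outside that rule were added after their values were seen. Alternatives were quantile and spike scaling, trend and robust priors, a replicate block and leaving out each array. Fits that leave out 1 array also without the flat probe sets were added after seeing the data. Same-numbered arrays deviated together at r = 0.44, 0.038 and 0.37, and arrays of different numbers at r from -0.49 to 0.46. These values do not settle whether the numbers mark pairs. The main fit did not take them as pairs, and the replicate block was fitted as an alternative.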

Additional observations from a re-analysis of the deposited data

How the results depend on the processing

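The number of cullin, RING-box and SkpA probe sets called was 1 as deposited, 2 on the spike scale and 0 with a replicate block over all probe sets. The whole array gave 57, 1685 and 0 calls in these fits. It was 0 for the cullin, RING-box and SkpA probe sets in each of the 6 fits without 1 array (limma, with 1 to 2 at an unadjusted p under 0.05), and 0 to 1 in those fits with the flat probe sets left out. The whole array gave 0 to 8 calls in the former and 129 to 876 in the latter. Cul6 kept a change of 0.26 with the replicate block, where its limma adjusted p was 0.304 and 0 probe sets of the whole array were called (1868 at an unadjusted p under 0.05). With the block and the flat probe sets left out it was called (0.0466). Not every array correlated best with its own number. Without 1 array the Cul6 change ranged from 0.25 to 0.27, and its excess over the other cullins from 0.17 to 0.25. Partner genes called were 0 as deposited, 1 after quantile normalization and 1 with a trend prior (57, 128 and 79 of 18769 probe sets called). They were 3 with flat probe sets left out, and 4 with the block as well, where SCCRO4 was lost and Den1 and CSN4 were added (6.20% of varying probe sets called). They were 12 on the spike scale (8.98% of all probe sets called, flat ones included). They were 1 to 7 without 1 array among varying probe sets, where 129 to 876 of all 7241 were called. Signs turned for 3 uncalled cullin or adaptor genes (Cul2, Cul3 and SkpA), and on the spike scale for 14 of the 41 varying partner genes. Without 1 array Cul2 ranged from -0.022 (without fragment replicate 3) to 0.057 and Cul3 from -0.11 to 0.0027 (without fragment replicate 2). On the spike scale Cul3 was 0.22 and SkpA 0.18. The cause was not tested, but the spike scale adds 0.26 to each change by construction.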
